A study of Rattus norvegicus with 10 samples.

Results

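The 7 genes described here encode subunits of the GABA-A receptor, the chloride channel that carries most fast inhibition in the brain: the alpha subunit genes Gabra2, Gabra3, Gabra4 and Gabra5, the beta subunit genes Gabrb1 and Gabrb2, and the delta subunit gene Gabrd. They were given as a list of gene symbols, and all 7 were found among the 17168 genes of the count table and passed the filter on low counts. Their transcripts were measured by RNA sequencing in the left hippocampus of 10 female rats of the transgenic line TgF-344AD, a model of Alzheimer disease that carries human disease transgenes. The 5 untreated rats ate rodent chow, and the 5 ibudilast rats ate chow with ibudilast, an oral inhibitor of cyclic nucleotide phosphodiesterases, from 5 months of age for 6 months. All rats were 11 months old at dissection, and all carried the transgenes, so no wild-type animal enters the comparison. Each title carries its own animal tag, and total estimated counts per library ran from 6960066 to 10121571.

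A GABA-A receptor is a ring of subunits, in most cases of alpha, beta and gamma or of alpha, beta and delta type. Receptors with a gamma subunit and Gabra2 or Gabra3 products gather at synapses, where they answer brief pulses of transmitter. Receptors with the delta subunit, which pairs with the Gabra4 product in the forebrain and with the Gabra6 product in cerebellar granule cells, lie outside synapses, as do many receptors with the Gabra5 product, and these carry a steady tonic current. In the hippocampus Gabra5 is known for pyramidal cells and Gabra4 and Gabrd for dentate granule cells, and Gabrb1 and Gabrb2 products can join either kind of receptor.

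The comparison asks how subunit transcripts differed between treated and untreated transgenic females. Of the 7 genes, Gabrb2 and Gabrd were higher with ibudilast, Gabra2, Gabra5 and Gabrb1 were lower, and Gabra3 and Gabra4 did not pass (quasi-likelihood test of edgeR, threshold 0.05 on the p adjusted over all genes by the Benjamini-Hochberg method). The largest difference was that of Gabrb2, with a log2 fold change of 2.44, and the largest fall that of Gabra5, with -1.47. Across all 11682 genes tested, 38.5% were called, 20% higher and 18.5% lower, so a call was common in these libraries. The groups did not overlap at Gabra2, Gabrb1 and Gabrb2, 3 of the 7, against 24.3% of all tested genes. The median log2 fold change over the 7 was 0.49 and over all tested genes 0.01. All levels below are CPM, the share of the library scaled with TMM factors to a common size. Since transcript lengths were not used, levels are compared between groups and not between genes. In tissue RNA, fewer cells of a type and less RNA per cell cannot be told apart.

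**Figure D1:**
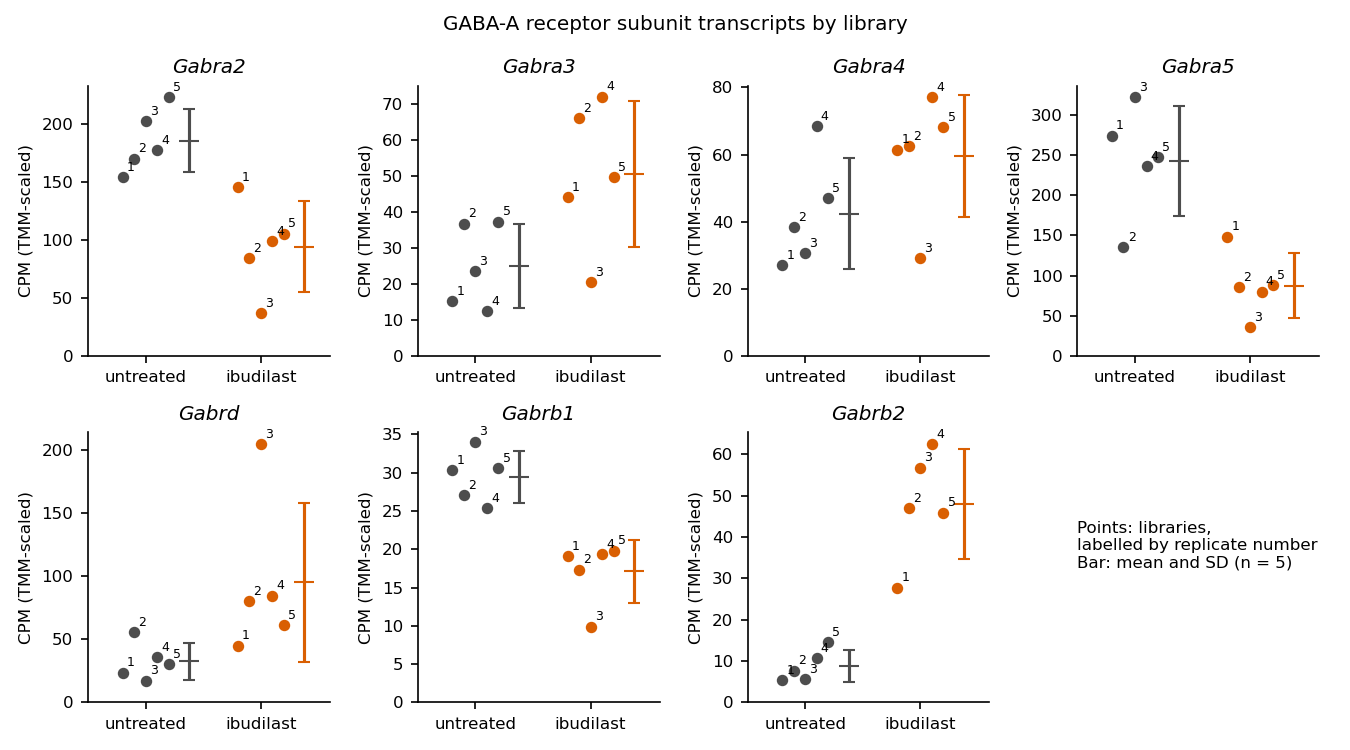
Each panel plots the CPM (y axis) of a subunit gene in the 5 untreated and 5 ibudilast libraries, labelled by replicate number, with the mean and SD beside them. Gabrb2 stands at 5.30 to 14.6 CPM untreated and 27.8 to 62.4 CPM with ibudilast, while Gabra2 and Gabrb1 lie lower in every ibudilast library than in any untreated one.

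Among the alpha subunits placed mainly at synapses, Gabra2, whose product is also found at the start of the axon, stood at 155, 170, 203, 178 and 223 CPM in untreated 1 to 5. In ibudilast 1 to 5 it stood at 145, 84.1, 36.6, 98.8 and 105 CPM. Every ibudilast library lay below every untreated library, with ibudilast 1 close to the untreated range and ibudilast 3 far under the rest. The means were 186 ± 27.4 and 94.0 ± 39.3 CPM (SD, n = 5 each). On the log2 scale Gabra2 fell by 0.98 with an SE of 0.28 (edgeR adjusted p = 0.0182). Gabra3, whose product is known from deep cortical layers and brainstem, stood at 15.2, 36.8, 23.5, 12.5 and 37.4 CPM in untreated 1 to 5. With treatment, ibudilast 1 to 5 had 44.3, 66.1, 20.5, 72.1 and 49.8 CPM. Here 4 ibudilast libraries lay above all untreated ones, and ibudilast 3 lay among them. The log2 fold change of 1.01 ± 0.37 (SE) had an edgeR adjusted p = 0.0516. Gabra3 passed without ibudilast 3 (1.21, adjusted p = 0.0107; 40.6% of all genes were called in that fit). It also passed without untreated 2 (1.19, 0.0451; 3756 of 11733 genes called) or untreated 5 (1.22, 0.0355; 4447 of 11769). DESeq2 called it too (adjusted p = 0.023; 4979 of 13204 genes called). With any other single library left out it did not pass. Nor did it with limma-voom (adjusted p = 0.0651) or with the replicate number as a block in edgeR (adjusted p = 0.0738).

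The 3 genes of extrasynaptic receptors did not move one way. Gabra5 stood at 274, 136, 322, 236 and 247 CPM in untreated 1 to 5. The values in ibudilast 1 to 5 were 149, 86.1, 35.5, 80.1 and 88.1 CPM. The groups overlapped only through untreated 2, which lay below ibudilast 1. The means were 243 ± 68.5 and 87.7 ± 40.3 CPM (SD, n = 5 each). Gabra5 fell by 1.47 on the log2 scale with an SE of 0.33 (edgeR adjusted p = 0.00574). Gabrd stood at 23.7, 55.7, 17.2, 36.1 and 30.6 CPM in untreated 1 to 5. The treated libraries, ibudilast 1 to 5, had 45.1, 80.2, 205, 84.7 and 61.4 CPM. Untreated 2 overlapped with ibudilast 1, and ibudilast 3 stood far above all others. The means were 32.7 ± 14.7 and 95.2 ± 63.3 CPM (SD, n = 5 each). Its log2 fold change came to 1.54 with an SE of 0.42 (edgeR adjusted p = 0.0145). Without ibudilast 3 the log2 fold change of Gabrd was 1.05 (adjusted p = 0.0176).

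Gabra4, the usual forebrain partner of the delta subunit, stood at 27.1, 38.3, 30.6, 68.6 and 47.0 CPM in untreated 1 to 5. In ibudilast 1 to 5 it stood at 61.5, 62.5, 29.1, 77.1 and 68.2 CPM. The groups overlapped widely, with all untreated libraries but untreated 1 within the ibudilast range and all ibudilast libraries but ibudilast 4 within the untreated range. The log2 fold change was 0.49 ± 0.29 (SE) and did not pass (edgeR adjusted p = 0.191), and without ibudilast 3 it passed at 0.67 (adjusted p = 0.0399). In ibudilast 3, then, Gabra4 was at its lowest and Gabrd at its highest value of the treated group.

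Of the beta subunits, which hold the binding sites for GABA together with an alpha subunit, Gabrb1 stood at 30.3, 27.0, 34.0, 25.4 and 30.6 CPM in untreated 1 to 5. With treatment, ibudilast 1 to 5 had 19.2, 17.3, 9.91, 19.4 and 19.8 CPM. The groups did not overlap, and 4 ibudilast libraries lay within 17.3 to 19.8 CPM. Gabrb1 fell by 0.78 on the log2 scale with an SE of 0.18 (edgeR adjusted p = 0.00626). Gabrb2, the beta subunit of the most common adult receptor, stood at 5.30, 7.71, 5.61, 10.7 and 14.6 CPM in untreated 1 to 5, from 36 to 106 counts. The values in ibudilast 1 to 5 were 27.8, 47.0, 56.8, 62.4 and 45.9 CPM, from 213 to 532 counts. The groups did not overlap, and ibudilast 1 lay nearest to the untreated libraries. The means were 8.79 ± 3.91 and 48.0 ± 13.2 CPM (SD, n = 5 each). Gabrb2 rose by 2.44 on the log2 scale with an SE of 0.30 (edgeR adjusted p = 0.000767). In 10 fits with 1 library left out, Gabra2, Gabra5, Gabrb1, Gabrb2 and Gabrd passed each time. Over those fits Gabrb2 ran from 2.31 to 2.73, Gabra5 from -1.75 to -1.26 and Gabrd from 1.05 to 1.82.

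Other GABA-A subunit genes were read from the same fit. Gabrg1, which encodes a gamma subunit, fell from 28.7 to 37.9 CPM without ibudilast to 17.6 to 23.8 CPM with it (log2 fold change -0.67, SE 0.12, edgeR adjusted p = 0.0025), and its groups did not overlap. Gabrg3, another gamma subunit gene, stood at 1.64 to 2.76 CPM without and 0.788 to 6.33 CPM with ibudilast and did not pass (log2 fold change 0.93, edgeR adjusted p = 0.107). It passed without ibudilast 3 (adjusted p = 0.00357), where 40.6% of all genes were called. Gabra6, Gabre, Gabrq, Gabrp, Gabrr1, Gabrr2 and Gabrr3 did not pass the filter on low counts. Gabra6, which marks cerebellar granule cells, stood at 449 CPM in ibudilast 3 and at 0 to 0.490 CPM in the other 9 libraries, and the other 6 of these genes stayed at or below 1.61 CPM in every library.

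**Figure D2:**
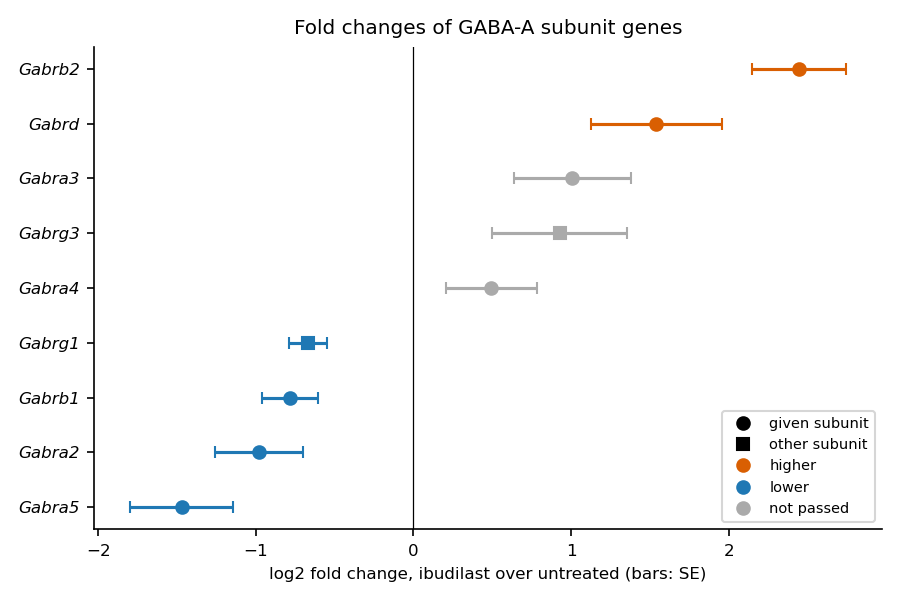
The x axis gives the log2 fold change of ibudilast over untreated for the 7 given subunit genes (circles) and for Gabrg1 and Gabrg3 (squares), with bars of 1 SE and colour for the call. Gabrb2 and Gabrd were called higher, and Gabrg1, Gabrb1, Gabra2 and Gabra5 lower.

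Most GABA-A subunit genes lie in clusters, a trait of the family, and the members were set beside their neighbours in the order given by the RefSeq gene table of the rat assembly GRCr8. On chromosome 14 the order is Gabrb1, Gabra4, Gabra2 and Gabrg1. The outer genes Gabrb1 and Gabrg1 and the inner Gabra2 fell, whereas Gabra4, between Gabrb1 and Gabra2, had a log2 fold change of 0.49 that did not pass. Gabrb2, which rose, lies on chromosome 10 next to Gabra6. On chromosome 1 Gabra5 fell, and its neighbour Gabrg3, at 0.93, did not pass. Gabra3 lies on chromosome X between Gabre and Gabrq, and Gabrd lies on chromosome 5 apart from the others.

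Promoter sequences of 300 bases, from 250 before to 50 after the annotated start, were found for 6 of the 7 genes in the RefSeq promoter table (GRCr8). Those of Gabra4, Gabra5 and Gabrb2 are shown because they belong to a gene that did not pass amid neighbours that fell, to the gene with the largest fall and to the gene with the largest rise. They lie at chr14:36944497-36944796 (plus strand), chr1:117516557-117516856 (minus strand) and chr10:27439543-27439842 (plus strand) of GRCr8. Each is written 5′ to 3′, and capitals mark matches to the searched motifs.
Gabra4 promoter: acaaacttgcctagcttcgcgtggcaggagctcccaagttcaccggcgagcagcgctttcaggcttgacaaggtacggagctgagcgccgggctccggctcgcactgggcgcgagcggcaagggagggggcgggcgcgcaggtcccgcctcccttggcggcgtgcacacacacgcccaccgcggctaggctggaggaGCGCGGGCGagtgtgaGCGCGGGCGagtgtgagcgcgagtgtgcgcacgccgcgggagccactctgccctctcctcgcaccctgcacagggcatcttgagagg
Gabra5 promoter: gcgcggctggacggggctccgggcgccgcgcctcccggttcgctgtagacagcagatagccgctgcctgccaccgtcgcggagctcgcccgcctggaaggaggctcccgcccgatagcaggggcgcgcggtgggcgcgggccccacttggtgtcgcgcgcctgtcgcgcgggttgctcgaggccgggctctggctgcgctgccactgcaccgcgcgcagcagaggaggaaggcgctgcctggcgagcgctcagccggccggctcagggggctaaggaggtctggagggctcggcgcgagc
Gabrb2 promoter: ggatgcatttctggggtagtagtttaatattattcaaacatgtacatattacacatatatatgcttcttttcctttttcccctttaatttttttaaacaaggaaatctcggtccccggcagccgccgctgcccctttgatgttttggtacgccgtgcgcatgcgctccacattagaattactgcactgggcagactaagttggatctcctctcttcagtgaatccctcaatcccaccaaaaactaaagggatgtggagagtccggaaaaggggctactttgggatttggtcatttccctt
The motifs searched on both strands were the cAMP response element TGACGTCA, the EGR site GCGNGGGCG, the E-box CACGTG and the TATA box TATAAA. Gabra4 held 2 EGR matches, which begin 53 and 37 bases before the start and do not overlap, and 4.98% of the 33469 promoters in the table held at least 1. The promoter of Gabra3 held a TATA box match on the opposite strand, as 14.2% of promoters did on either strand, and none of the other 4 member promoters held any of the motifs. The cAMP response element occurred in 1.83% and the E-box in 6.42% of all promoters. The G and C content was 76.3% in Gabra5, 73.7% in Gabrd, 70.7% in Gabra4, 49.3% in Gabrb1, 44% in Gabrb2 and 39.3% in Gabra3, against a median of 51.7%. Gabra5, which fell, and Gabrd, which rose, both had promoters rich in G and C, and Gabrb1, which fell, and Gabrb2, which rose, both lay below the median.

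The contrast of synaptic with extrasynaptic subunits was read within each library, as the mean log2(CPM + 1) of Gabra2 and Gabra3 minus that of Gabra4, Gabra5 and Gabrd. It was -0.01 ± 0.49 in untreated and -0.19 ± 0.51 in ibudilast libraries (SD, n = 5 each), a difference of -0.17 that is smaller than the spread within either group. Without ibudilast 3, which stood at -1.10, the difference was 0.06. With Gabra5 counted in neither group, and ibudilast 3 kept in, it was -1.01. The value thus turns both on ibudilast 3 and on where Gabra5, which fell while Gabrd rose, is placed. As a description over genes chosen with results known, it carries no test. Differences between single subunits within a library moved further between groups. Each pair sets a gene with a positive log2 fold change against one that fell, so such a shift follows from the fold changes above. The pairs too carry no test. Gabrb2 minus Gabrb1 was -1.72 ± 0.64 in untreated and 1.42 ± 0.69 in ibudilast libraries on the log2(CPM + 1) scale. The groups did not overlap for this pair. Since transcript lengths were not used, the sign of such a difference does not rank the genes of a pair. Gabra4 minus Gabra2 was -2.17 ± 0.50 and -0.59 ± 0.38, and Gabrd minus Gabra5 was -2.91 ± 1.07 and 0.05 ± 1.53. The groups did not overlap for the former of these, and for the latter untreated 2, at -1.27, overlapped with ibudilast 1, at -1.70.

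**Figure D3:**
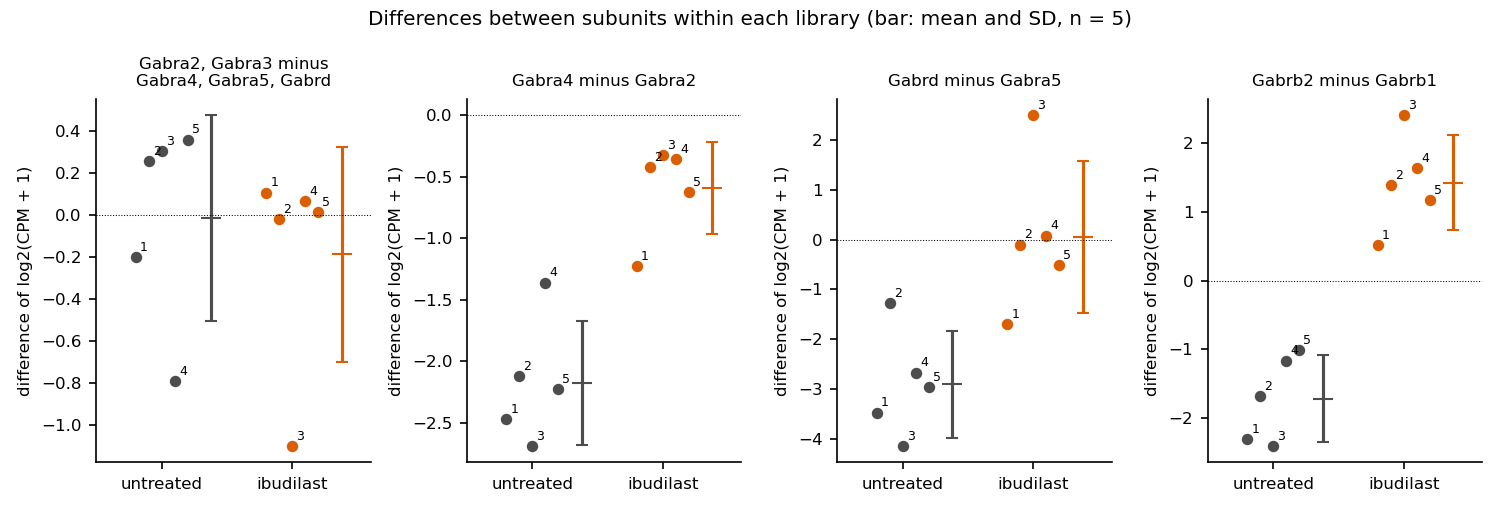
Each panel plots a difference of log2(CPM + 1) between subunit genes within a library (y axis) for the untreated and ibudilast groups, with points labelled by replicate number and bars for the mean and SD. The synaptic minus extrasynaptic difference overlaps between groups, with ibudilast 3 at -1.10, while Gabrb2 minus Gabrb1 does not overlap between groups.

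Partner genes of the receptor were read from lists chosen by function. The counts of these and the marker lists are to be read against the shares of all tested genes, 20% called higher and 18.5% lower. Of 9 tested genes of the inhibitory postsynapse, Nlgn2 and Lhfpl4 rose, 7 did not pass and none fell. Nlgn2, an adhesion protein of inhibitory synapses, had a log2 fold change of 0.77 (edgeR adjusted p = 0.00285). Lhfpl4, a transmembrane protein that holds gamma-containing receptors at synapses, had one of 1.10 (edgeR adjusted p = 0.00633). Gphn, which encodes the scaffold gephyrin, stood at 78.9 ± 8.42 and 79.4 ± 4.94 CPM (SD, n = 5 each). The list's median log2 fold change was -0.05, against 0.01 over all tested genes. Of 13 genes of receptor trafficking, 5 rose and 2 fell, 6 missed the threshold, and the median was 0.25. Kif5a, a motor that moves receptors to the surface, rose by 1.16, Arfgef2 by 1.06 and Trak1 by 0.43, and Gabarap, a protein that binds gamma subunits, fell by 0.63 on the log2 scale.

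Genes that make, clear and transport GABA or set the chloride gradient rose in 5 of 9 cases, against 20% of all tested genes, and the other 4 did not pass (median 0.60). Abat, which breaks down GABA, rose by 0.82 and Gad2, which makes it, by 1.10 on the log2 scale. Slc12a5, which encodes the chloride exporter KCC2, went from 534 ± 86.1 to 826 ± 93.2 CPM, and Slc12a2, which encodes the importer NKCC1, from 95.1 ± 18.0 to 145 ± 37.7 CPM (SD, n = 5 each). Of 4 tested GABA-B receptor genes, Kctd8, an auxiliary subunit gene, rose from 2.78 ± 1.14 to 16.2 ± 7.10 CPM, and Gabbr1, Gabbr2 and Kctd16 did not pass (median 0.47). Of 4 tested genes of endogenous modulators, Dbi, which encodes a peptide that binds at the benzodiazepine site, fell by 1.12 on the log2 scale, and the other 3 did not pass (median -0.42).

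Markers of brain regions and cell types were read from the same fit, beside 20% of all tested genes called higher, 18.5% lower and 24.3% without overlap. Of 10 tested neocortex markers 6 rose and none fell, and their summed level ran from 310 to 444 CPM without ibudilast and from 578 to 991 CPM with it, so the groups did not overlap. By the mean z-score of their log2(CPM + 1), ibudilast 3, with a sum of 817 CPM, stood at -0.33, close to untreated 5 at -0.35. The other ibudilast libraries stood at 0.23 to 1.05. Of 14 markers of thalamus and striatum 6 rose and none fell, with sums of 202 to 281 and 349 to 440 CPM. Of 6 CA pyramidal cell markers 4 fell, with sums of 562 to 1581 and 453 to 1058 CPM. Of 3 dentate granule cell markers C1ql2 fell, with sums of 99.6 to 368 and 31.1 to 187 CPM, and Tdo2 stood at or near 0 in all libraries. Gabrd was higher in the group where the dentate sums had the lower range, though the ranges overlapped. Within the untreated group, the dentate sums were 99.6, 368, 111, 285 and 235 CPM in untreated 1 to 5. Gabrd there stood at 23.7, 55.7, 17.2, 36.1 and 30.6 CPM, higher in untreated 2, 4 and 5, where the sums were higher. Ibudilast 3 had the lowest dentate sum, 31.1 CPM, and the highest Gabrd, 205 CPM. The part of dentate content in the Gabrd values was not tested. Cerebellar markers summed to 10.1 to 25.7 CPM in untreated libraries, to 2551 CPM in ibudilast 3 and to 18.5 to 62.2 CPM in the other 4 ibudilast libraries. Among interneuron markers 3 of 9 rose and none fell, with sums of 296 to 516 and 476 to 1233 CPM. The 1233 CPM was that of ibudilast 3, and the next sum was 691 CPM in ibudilast 4. The mean z-score of this list was -0.44 in ibudilast 3 and 0.15 to 0.89 in the other ibudilast libraries. Among glial markers 5 of 6 of microglia and 3 of 5 of astrocytes fell, with sums of 330 to 457 and 172 to 314 CPM and of 4279 to 6445 and 2628 to 3956 CPM. Of 5 oligodendrocyte markers edgeR called 0, with 1 at an unadjusted p under 0.05, and their sums were 5482 to 16766 and 5029 to 10402 CPM. DESeq2 called 1 of these and limma-voom 0. The part of glial and interneuron markers in the results was not tested.

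The members were also fitted with a score of these markers as a covariate. With the neocortex score, under which 14.4% of all genes were called, Gabrb2 (log2 fold change 2.31), Gabrd (2.24) and Gabrb1 (-1.34) passed. Gabra2 (-1.53, adjusted p = 0.0668) and Gabra5 (-1.84, 0.0732) did not, and Gabra3 and Gabra4 changed sign, to -0.41 and -0.20. With a score of dentate and CA markers, under which 13.8% of genes were called, Gabrb2 alone of the 7 passed, at 2.21 (edgeR adjusted p = 0.0209). Gabra5 then stood at -1.01, Gabra2 at -0.49, Gabrb1 at -0.64 and Gabrd at 0.66. Gabra3 stood at 0.91 and Gabra4, at 0.49 without the score, at 1.10 (edgeR adjusted p = 0.0603). Both scores vary with treatment, so these fits share variation between the score and the group.

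Without ibudilast 3, ibudilast 5 and untreated 1, which were picked from earlier results of these data, 26.6% of all genes were called. Untreated 1 had sums of 348 CPM of neocortex and 18.3 CPM of cerebellar markers, inside the untreated ranges. Ibudilast 2 and ibudilast 4, with the highest neocortex scores (0.98 and 1.05), stayed in this fit. Gabrb2 (2.24), Gabra3 (1.14), Gabra2 (-0.83), Gabra5 (-1.16) and Gabrb1 (-0.66) passed, and Gabrd (0.99, adjusted p = 0.0623) did not. Within the 6 libraries with animal tags below 100, where 17% of all genes were called, Gabrb2 had a log2 fold change of 2.83 and Gabrb1 of -0.96, and both passed. Within the 4 with tags above 200, where 4.58% were called, Gabrb2 (2.12), Gabrd (1.15), Gabra2 (-0.95) and Gabra5 (-1.49) passed. With the range of the tag as a covariate, where 38.2% of all genes were called, the same 5 members passed as in the fit without it. All 7 members kept their direction in both ranges, and what the ranges stand for is not given in the labels.

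**Figure D4:**
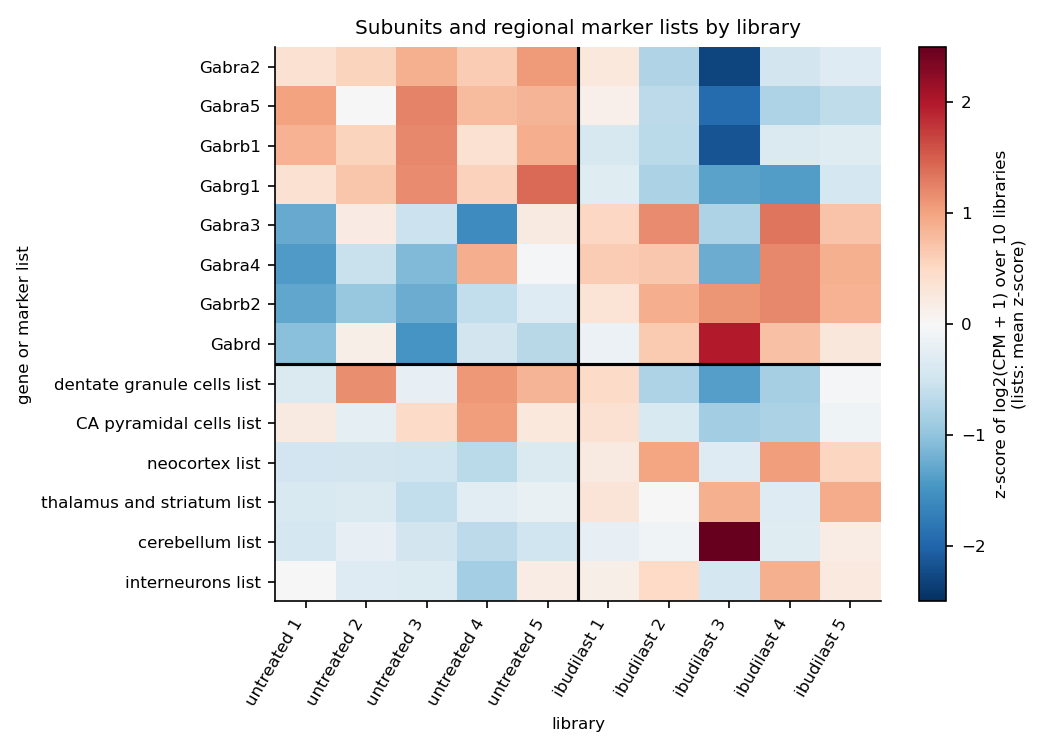
Rows are subunit genes and marker lists, columns the 10 libraries, and colour gives the z-score of log2(CPM + 1) over libraries (for lists, the mean z-score of their genes). Gabra2, Gabra5, Gabrb1 and Gabrg1 are high on the untreated side, Gabrb2 on the ibudilast side, and ibudilast 3 stands out for Gabrd and the cerebellum list.

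**Figure D5:**
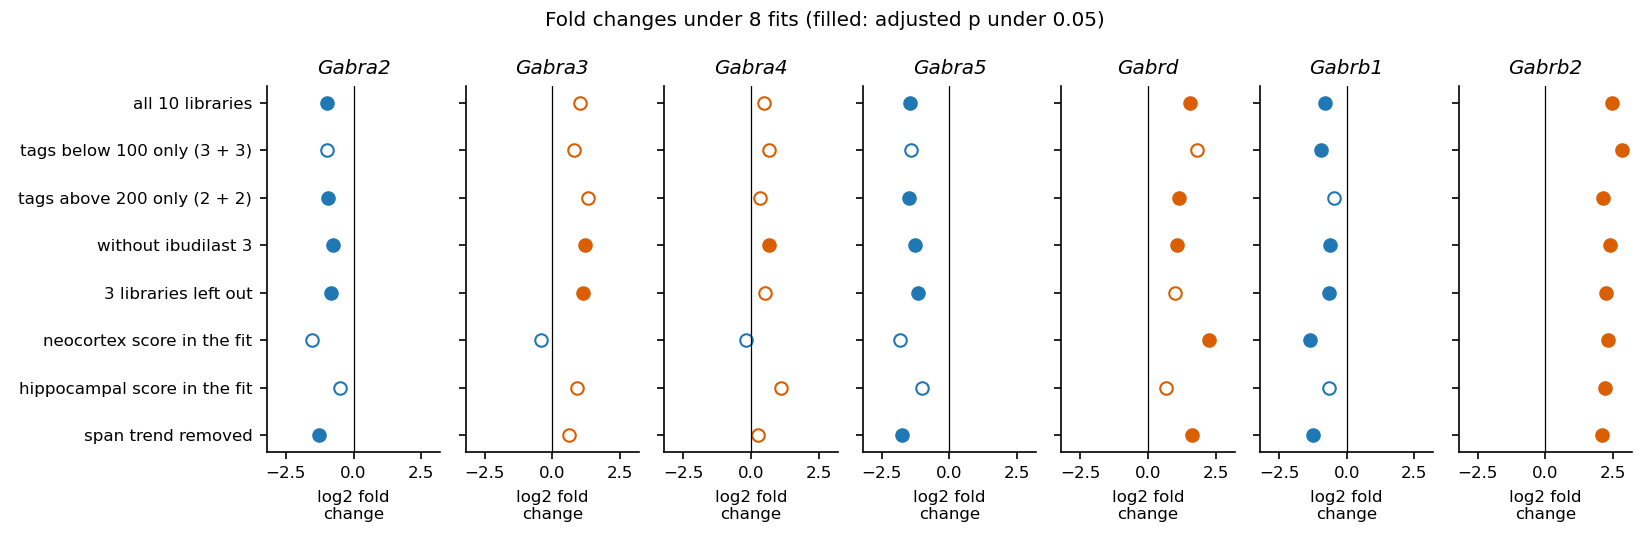
The x axes give the log2 fold change of each member under 8 fits (rows), filled where the adjusted p was under 0.05. Gabrb2 is filled in every row, from 2.11 to 2.83, and Gabra3 and Gabra4 cross 0 with the neocortex score.

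The genomic span of a gene also went with its fold change. The median log2 fold change was -0.29 in the decile of shortest genes and 0.39 in that of longest genes. Gabra3, Gabrb1 and Gabrb2 fall in the longest decile, Gabra2, Gabra4 and Gabra5 in the next, and Gabrd in the third from the shortest. Gabra2, Gabra5 and Gabrb1 fell, and the medians of their deciles were 0.27, 0.27 and 0.39. A fit with the span trend removed was added to the planned ones, and 34.7% of all genes were called in it. The same 5 members passed, with Gabrb1 at -1.26 (edgeR adjusted p = 0.00112), Gabra5 at -1.74 and Gabrb2 at 2.11. Gabra3 went from 1.01 to 0.64 and Gabra4 from 0.49 to 0.28, and neither passed. The part of span in the member values was not tested.

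The genes whose log2(CPM + 1) followed each member most closely over the 10 libraries were named by Pearson's r among 10206 candidates, as a description in which all points share the treatment difference and the library. Gabrb2 was followed by Zfp507 (r = 0.996), Dstyk (0.993) and Ncoa6 (0.992). Gabra2 was followed by Icam5 (0.988) and Pcdh8 (0.985), and Gabrb1 by Cd24 (0.982) and Stx7 (0.973). Gabra5 was followed by Nrip3 (0.982), Tubb2a (0.981) and Raver2 (0.981), and Gabrd by Proser1 (0.975), Nrg2 (0.973) and Kcnk1 (0.973). Gabra3 was followed by Smarcd1 (0.975), Polr2m (0.969) and Sstr1 (0.961), and Gabra4 by Hace1 (0.975), Abi2 (0.969) and Rapgef5 (0.965). The genes listed for Gabra2, Gabra5 and Gabrb1 were all called lower and those for Gabrb2 and Gabrd all higher.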

How the data were processed

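Left hippocampal RNA was extracted on RNeasy columns, and stranded libraries were prepared from mRNA, per the labels' protocols. The authors deposited expected counts per gene, estimated with RSEM 1.2.15, and the submitters' processing notes also name Bowtie2 2.1.0, bcl2fastq 2.17 and the rn6 build. Annotation, filters and use of strand in counting: not given in the sources used here. A second table deposited by the authors holds a signal per gene, CPM scaled with TMM factors. When recomputed here without the filter on low counts, 99.9% of its values matched within 0.1%. The CPM printed in this report use library sizes and TMM factors after that filter and can differ by more. Gabrd in ibudilast 3, for example, is 205 CPM here and 203 CPM as deposited.

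Counts were rounded and tested by quasi-likelihood in edgeR 4.0.16 (R 4.3.3) after filterByExpr and TMM scaling, with Benjamini-Hochberg adjustment and a threshold of 0.05, without the replicate number as a block. Treatment labels gave the groups, and titles the replicate numbers. SE is the log2 fold change divided by the square root of the F statistic. Alternatives used DESeq2 1.42.0, limma 3.58.1, other scalings and filters, covariates and left-out libraries. Genomic span was known for 91.8% of tested genes, from the RefSeq table of GRCr8, so with the rn6 counts it is an approximation. The test was checked on simulated counts. With 200 changed genes it recovered 18.2% of 1.5-fold and 69% of 2-fold changes, and it called 5 unchanged genes. Many small changes were thus missed. Far more genes were called in the data than were changed in the simulation, so these shares need not hold for the data.

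The members, lists and alternatives were chosen with earlier results of these data known, so no list test was made. The rule for named genes took all 7 members and all tested other subunits, with up to 4 called genes of each partner list and Gphn, which was chosen after its values were seen, and the 3 genes of highest r per member with a mean of at least 5 CPM. Some genes that this rule takes are not reported here. Markers absent from the table were not used here.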

Additional observations from a re-analysis of the deposited data

Results flagged for a closer look

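In groups of 5 libraries, 3 values of ibudilast 3 stood apart from the other 4 libraries of the group by Dixon's criterion. They were Gabrd at 205 CPM, where the next value was 84.7 CPM, Gabrb1 at 9.91 CPM, where the next was 17.3 CPM, and the synaptic minus extrasynaptic difference of log2(CPM + 1) at -1.10, where the next was -0.02. Over 26 groups examined, chance flags about 1 in 20. Ibudilast 3 also held 449 CPM of Gabra6 and the highest sum of cerebellar markers, 2551 CPM, and the part of these in the values was not tested.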

How the results depend on the processing

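The count of 5 called members was 5 to 7 with 1 library left out and 5 with the replicate block, where 3535 of all genes (30.3%) were called. Same-numbered libraries did not deviate together (correlations from -0.14 to 0.02), so the numbers were not read as pairs. Of all tested genes, 4497 passed in the full set and 3458 to 4751 after removal of any 1 library. With upper quartile factors the split was 2080 higher and 2521 lower. Fewer members passed with tags below 100 only (2; 1997 of all genes), the neocortex score (3; 1688) and the hippocampal score (1; 1607), and with tags above 200 only 540 of all genes passed. The first and last of these fits have fewer libraries, and the cause of the others was not tested. With the neocortex score Gabra3 was at -0.41, Gabra4 at -0.20 and Gabrg3 at -0.97. The synaptic minus extrasynaptic difference, -0.17 in the full set, ran from -0.37 to 0.055 after removal of any 1 library. It was 0.018 without ibudilast 3, ibudilast 5 and untreated 1, and -1.01 with Gabra5 in neither group. Between 36 and 106 counts stand behind Gabrb2 in untreated libraries, which limits its precision there.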
